A study of Homo sapiens with 24 samples.

Results

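The genes described here are 9 cell surface receptor tyrosine kinases and 1 secreted ligand that act in cell spread and survival in breast cancer: AXL, TYRO3, MERTK and their ligand GAS6, and MET, EPHA2, PDGFRB, FGFR1, DDR1 and DDR2. They were chosen by name, and each symbol matched 1 Ensembl identifier of the 60675 in every count file, so 10 of 60675 genes are described. The study measured RNA by sequencing in established triple-negative breast cancer lines, MDA-MB-231 and another named MDA-MB-436. The treatments were directed against MDM2, the ubiquitin ligase best known for degrading p53. Each line was carried as cells with a non-targeting shRNA, cells with an MDM2 shRNA, cells given DMSO, the vehicle, and cells given YX-2-30, a PROTAC (a molecule that directs its target to the proteasome) against MDM2. With 3 libraries in each of these 8 groups there were 24 libraries. Both lines are known to lack wild-type p53. The labels give no dose, no time and no shRNA sequence, and whether replicates are separate cultures is not stated. The p-values therefore measure only the spread between these libraries.

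Receptor tyrosine kinases are single-pass membrane proteins that dimerise when a ligand binds outside the cell, phosphorylate each other and recruit adaptors that start the RAS-MAPK and PI3K-AKT cascades. AXL, TYRO3 and MERTK form the TAM family, which binds the vitamin K-dependent proteins GAS6 and protein S. MET is the receptor of hepatocyte growth factor (HGF), EPHA2 binds A-type ephrins on neighbouring cells, PDGFRB and FGFR1 bind platelet-derived and fibroblast growth factors, and DDR1 and DDR2 are receptors for collagen. In breast cancer AXL and DDR2 are known mostly from cells with mesenchymal traits.

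The libraries held 33.4 M to 174.7 M counts (M, 1000000), with a median of 64.0 M. Libraries of a group correlated at 0.983 to 0.994 (Pearson's r of log2 CPM), with the lowest values, 0.983 and 0.984, for the shallowest, MDA-MB-436 PROTAC replicate 3. Without it the PROTAC calls among the 10 genes in MDA-MB-436, 5 with all libraries, were 7, with MET and DDR2 added as lower. No library labelled MDM2 shRNA (below, the shRNA label) stood below all its controls in MDA-MB-231. Levels are in CPM (counts per 1000000 counts of the library, its total scaled by a TMM factor). In MDA-MB-231 MDM2 was at 19.97, 22.9 and 11.5 CPM with the non-targeting shRNA. With the MDM2 shRNA label it was at 24.8, 23.8 and 30.9 CPM. In MDA-MB-436 MDM2 was at 21.5, 29.9 and 24.3 CPM with the non-targeting shRNA and at 14.7, 28.0 and 26.8 CPM with the MDM2 shRNA label. A fall of MDM2 RNA was not called in either line (adjusted p = 0.137 and 0.78, edgeR quasi-likelihood test with Benjamini-Hochberg adjustment), and these groups are named by their label only; a PROTAC acts on the protein, which was not measured. The lines' labelled epithelial type was checked against 7 markers, whose summed level was 409 to 1142 CPM per library. Most of it came from the keratins KRT8 and KRT18 in both lines and KRT19 in MDA-MB-231, while CDH1, the epithelial cadherin, was near 0. The leukocyte marker CD3E and the stromal marker DCN were at or near 0 counts, but some other markers of their lists were not. The 6 leukocyte markers summed to 23.83 to 50.15 CPM per library, and the 10 fibroblast or pericyte markers to 82.37 to 175.8 CPM. In MDA-MB-436 the epithelial sum was lower in treated libraries (409 to 572 CPM) than in controls (827 to 1142 CPM). Over the epithelial markers tested in that line, the median log2 change was -0.111 with the shRNA label and -0.819 with the PROTAC. Of the 6 tested there, 3 were higher and 2 lower with the shRNA label (adjusted p below 0.05, edgeR). With the PROTAC 1 was higher and 2 lower. Over all genes 16% were higher and 14.4% lower with the shRNA label, and 17.3% and 15.1% with the PROTAC. The part of the epithelial sum in the results below was not tested. In bulk RNA, fewer cells that make a transcript and less of it per cell cannot be told apart.

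A gene was called higher or lower in a treatment when its adjusted p was below 0.05 in a model fitted over the 12 libraries of its line, against the treatment's own control. In MDA-MB-231 the shRNA label gave calls for 7 of the 10 genes, 3 higher and 4 lower, against 22.7% of the 20675 genes tested (11.1% higher, 11.6% lower). The PROTAC gave calls for 7 of 10 in MDA-MB-231, 3 higher and 4 lower, against 22.6% (11.1% higher, 11.5% lower). In MDA-MB-436 the shRNA label gave calls for 3 of 10, 2 higher and 1 lower, against 30.4% of the 22663 genes tested (16% higher, 14.4% lower). The PROTAC gave calls for 5 of 10 there, 4 higher and 1 lower, against 32.4% (17.3% higher, 15.1% lower). The share was thus near the background for the shRNA label in MDA-MB-436 and above it in the other 3 comparisons, a difference that rests on 10 chosen genes and was not tested. The median log2 change of the 10 genes in these comparisons was -0.03, 0.06, -0.06 and -0.15, beside 0.01, -0.01, 0.04 and 0.04 over all genes tested. Libraries of treatment and control did not overlap for 7, 7, 7 and 4 of the 10 genes, against 39%, 39.1%, 51.3% and 41.6% of all genes. AXL, TYRO3 and PDGFRB were called in all 4 comparisons, AXL lower and the other two higher, and MERTK and DDR1 in none. Scaling to library totals in place of TMM factors moved the median of all genes up by 0.10, 0.08, 0.18 and 0.17 (log2). It moved the share of calls that were higher from 48.8, 49.1, 52.5 and 53.4% to 68, 65.6, 72.8 and 70.9%. The changes below are relative to the TMM scale, and no called gene of the 10 changed sign under it.

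**Figure D1:**
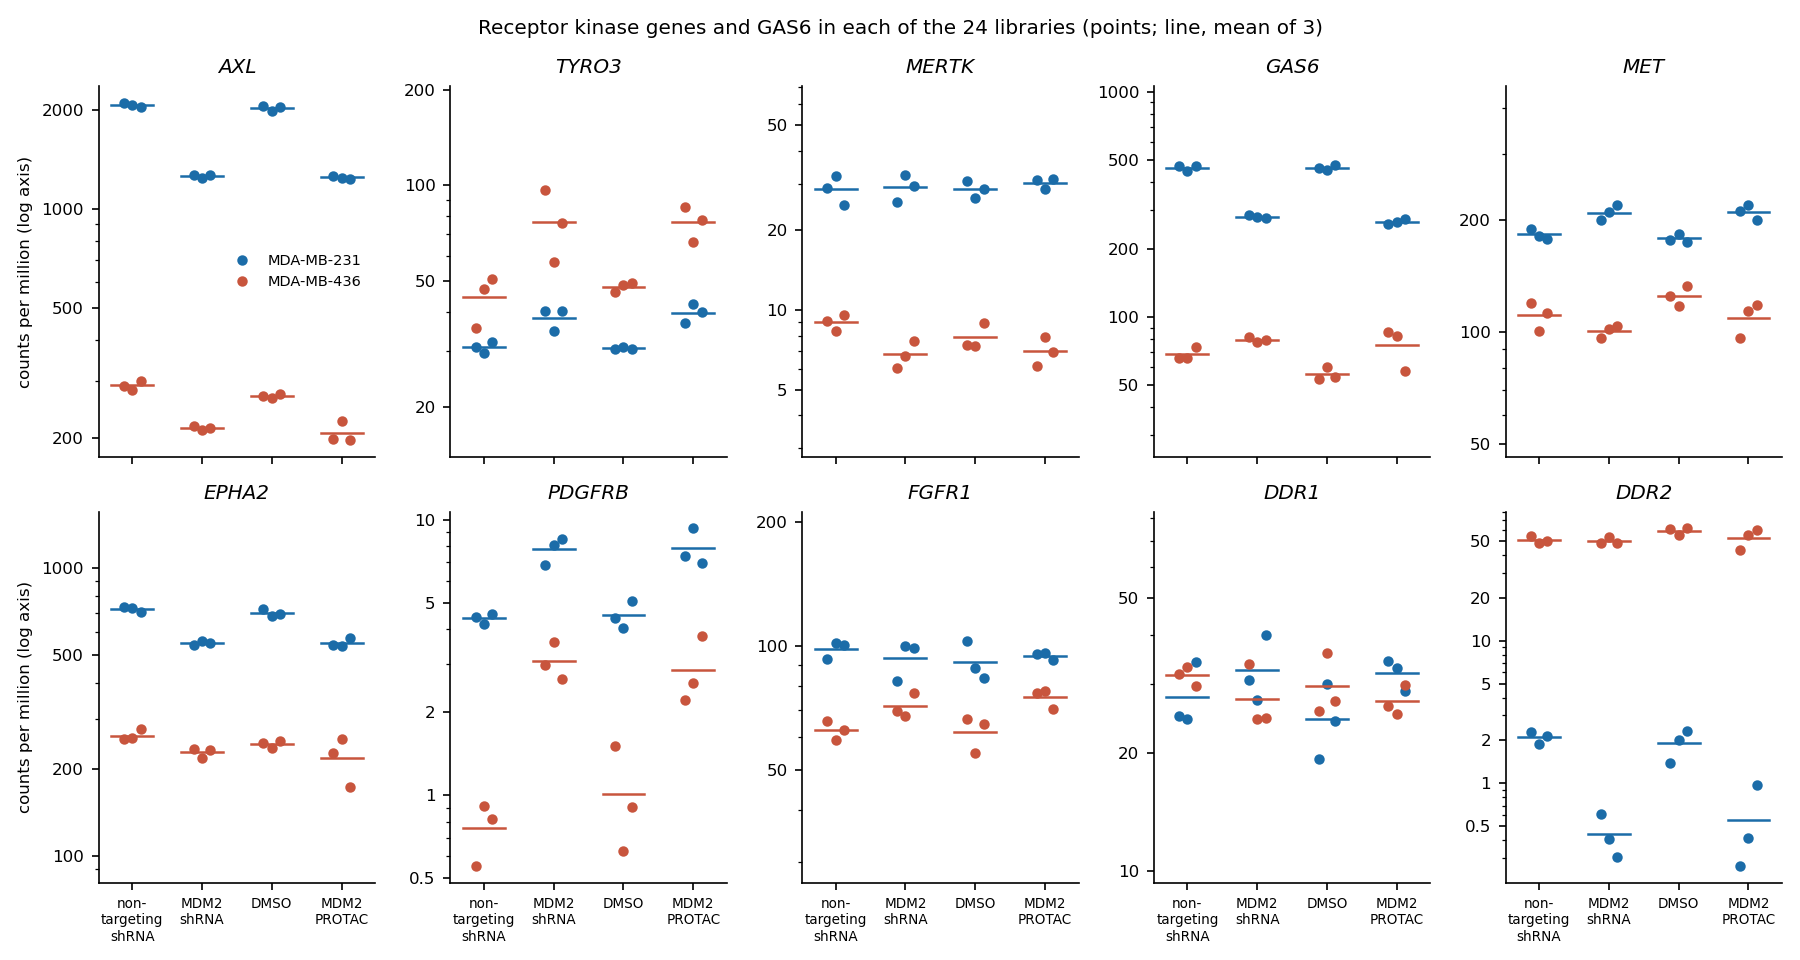
Level of each of the 10 genes in CPM (log axis) in the 24 libraries, by treatment group along the horizontal axis; points are libraries, horizontal lines are means of 3, blue is MDA-MB-231 and red is MDA-MB-436. AXL is lower in both treatments in both lines, GAS6 is lower in the treated MDA-MB-231 libraries only, and DDR2 libraries lie at 43.4 to 61.2 CPM in MDA-MB-436 and at most at 2.35 CPM in MDA-MB-231.

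AXL was the most abundant of the 10 genes per exon length in MDA-MB-231 and fell to about 0.61 of its control level there under both treatments. The gene (ENSG00000167601) lies on the plus strand at chr19:41219203-41261766 (GRCh38). In MDA-MB-231 it stood at 2104, 2076 and 2039 CPM with the non-targeting shRNA and at 1270, 1242 and 1267 CPM with the MDM2 shRNA label. With DMSO it stood at 2060, 1990 and 2039 CPM and with the PROTAC at 1260, 1246 and 1234 CPM. All 6 treated libraries were far below all 6 controls, and the libraries within each group lay close together. The log2 change of AXL was -0.72 ± 0.02 (SE, n = 3 against 3, adjusted p = 2.67e-08, edgeR) with the shRNA label and -0.71 ± 0.02 (adjusted p = 3.24e-08, edgeR) with the PROTAC.

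In MDA-MB-436 the AXL level in control libraries was 0.136 of that in MDA-MB-231, and it fell less. It stood at 289.6, 281.0 and 299.0 CPM with the non-targeting shRNA and at 217.8, 211.7 and 215.2 CPM with the MDM2 shRNA label. It stood at 269.4, 266.3 and 272.1 CPM with DMSO and at 199.1, 225.5 and 197.2 CPM with the PROTAC. Treated and control libraries again did not overlap. The log2 change was -0.42 ± 0.05 (fold 0.750, adjusted p = 1e-04, edgeR) with the shRNA label and -0.38 ± 0.05 (fold 0.767, adjusted p = 0.000161, edgeR) with the PROTAC. The fall of AXL was smaller in MDA-MB-436 than in MDA-MB-231 by 0.29 ± 0.06 (log2; adjusted p = 0.00204, edgeR over all 24 libraries) for the shRNA label and by 0.33 ± 0.06 (adjusted p = 0.000586, edgeR) for the PROTAC. Of the 8 groups, the order from high to low was the MDA-MB-231 controls, the MDA-MB-231 treatments, the MDA-MB-436 controls and the MDA-MB-436 treatments, and libraries overlapped between the MDA-MB-231 controls, between the MDA-MB-231 treatments and between the MDA-MB-436 treatments.

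Mesenchymal markers were mixed, and their sum followed its most abundant member. VIM, the intermediate filament of mesenchymal cells, fell in MDA-MB-231 from 5196 ± 867 to 2906 ± 145 CPM with the shRNA label (log2 change -0.84 ± 0.09, adjusted p = 7.84e-05, edgeR) and from 4683 ± 46 to 2889 ± 171 CPM (SD, n = 3) with the PROTAC (-0.70 ± 0.09, adjusted p = 0.000292, edgeR). The 6 mesenchymal markers summed to 5008 to 6584 CPM in the 6 control libraries of MDA-MB-231 and to 3167 to 3480 CPM in the 6 treated ones, and VIM held most of each sum. Of the 6 markers 1 was higher and 2 lower in each comparison, with a median log2 change of -0.02 and -0.45. FN1, which encodes fibronectin, rose (0.31 ± 0.05 and 0.44 ± 0.05, adjusted p = 0.00198 and 0.000173, edgeR). In MDA-MB-436 the sums were 1025 to 1244 CPM in controls and 764 to 910 CPM in treated libraries. Of the 6 markers there 1 was higher and 3 lower with the shRNA label, and 1 higher and 4 lower with the PROTAC. Their median log2 changes were -0.229 and -0.54. Over all genes 22.7% and 22.6% were called in MDA-MB-231, and 30.4% and 32.4% in MDA-MB-436. The part of these markers in the AXL result was not tested.

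GAS6, the ligand of AXL, fell with its receptor in MDA-MB-231 but not in MDA-MB-436. The gene (ENSG00000183087) lies on the minus strand at chr13:113820549-113864067. In MDA-MB-231 it stood at 466.9, 447.6 and 469.0 CPM with the non-targeting shRNA and at 282.9, 277.3 and 276.5 CPM with the MDM2 shRNA label. It stood at 458.0, 450.2 and 475.5 CPM with DMSO and at 260.5, 264.1 and 272.7 CPM with the PROTAC. Treated libraries were below all controls, and the fall was about as large as that of AXL. The log2 change was -0.73 ± 0.04 (fold 0.605, adjusted p = 2.09e-07, edgeR) with the shRNA label and -0.80 ± 0.04 (fold 0.575, adjusted p = 1.41e-07, edgeR) with the PROTAC.

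In MDA-MB-436 GAS6 stood at 66.1, 65.8 and 73.8 CPM with the non-targeting shRNA and at 81.8, 77.7 and 79.2 CPM with the MDM2 shRNA label. With DMSO it stood at 53.4, 60.1 and 54.4 CPM and with the PROTAC at 86.4, 82.2 and 57.6 CPM. The libraries labelled MDM2 shRNA were above all their controls, but PROTAC replicate 3 lay inside the DMSO range. The log2 change was 0.23 ± 0.11 (adjusted p = 0.142, edgeR) with the shRNA label and 0.42 ± 0.11 (fold 1.34, adjusted p = 0.0127, edgeR) with the PROTAC, and the PROTAC call was lost without PROTAC replicate 1 (0.31, adjusted p = 0.059, edgeR) or replicate 2 (0.36, adjusted p = 0.0556, edgeR). The response of GAS6 differed between the lines by 0.94 ± 0.14 (log2, MDA-MB-436 minus MDA-MB-231; adjusted p = 4.02e-05, edgeR) for the shRNA label and by 1.23 ± 0.14 (adjusted p = 1.71e-06, edgeR) for the PROTAC. The antisense gene GAS6-AS1 shares 421 exonic bases with GAS6 and held 0.779% of the number of its counts over the 24 libraries, and AC011510.1 held 0.069% of the number for AXL.

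**Figure D2:**
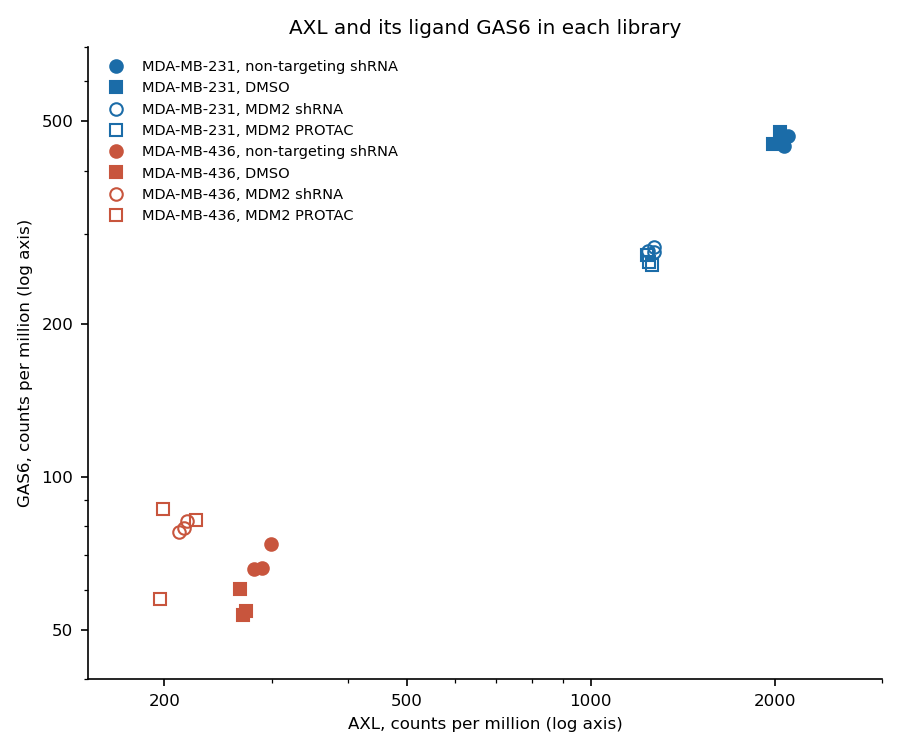
AXL (horizontal) and GAS6 (vertical) in CPM, both on log axes, with 1 point per library; filled marks are controls, open marks treated, circles the shRNA groups, squares DMSO and PROTAC. The treated MDA-MB-231 libraries (blue) lie below and to the left of their controls, with GAS6 at 260.5 to 282.9 CPM, whereas the treated MDA-MB-436 libraries (red) lie to the left of their controls with no fall of GAS6.

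TYRO3, the least abundant TAM receptor per exon length in MDA-MB-231, moved opposite to AXL in all 4 comparisons. The gene (ENSG00000092445) lies on the plus strand at chr15:41557675-41583586. In MDA-MB-231 it stood at 30.9, 29.6 and 32.2 CPM with the non-targeting shRNA and at 40.1, 34.8 and 40.2 CPM with the MDM2 shRNA label. It stood at 30.6, 30.9 and 30.6 CPM with DMSO and at 36.9, 42.2 and 39.8 CPM with the PROTAC. In MDA-MB-436 it stood at 35.4, 47.1 and 50.6 CPM with the non-targeting shRNA and at 96.7, 57.3 and 75.9 CPM with the MDM2 shRNA label. It stood at 46.0, 48.6 and 49.1 CPM with DMSO and at 85.5, 66.3 and 78.0 CPM with the PROTAC. Every treated library was above every library of its own control, and the 3 MDA-MB-436 libraries of the shRNA label were the most spread. The log2 changes of TYRO3 in MDA-MB-231 were 0.31 ± 0.07 (adjusted p = 0.0117, edgeR) with the shRNA label and 0.37 ± 0.07 (adjusted p = 0.00464, edgeR) with the PROTAC. In MDA-MB-436 they were 0.81 ± 0.18 (adjusted p = 0.00481, edgeR) and 0.67 ± 0.18 (adjusted p = 0.0125, edgeR), in the same order. The difference between the lines was 0.48 ± 0.20 and 0.31 ± 0.20 and did not pass the test (adjusted p = 0.117 and 0.325, edgeR). The MDA-MB-231 calls were lost when all 24 libraries shared 1 spread (adjusted p = 0.184 and 0.105, edgeR), and that with the shRNA label was also lost without non-targeting replicate 2 (adjusted p = 0.0606, edgeR).

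MERTK, the third TAM receptor (ENSG00000153208, plus strand, chr2:111898479-112029561), gave no call in any treatment comparison. In MDA-MB-231 its group means were 28.7 ± 3.7, 29.1 ± 3.4, 28.7 ± 2.1 and 30.3 ± 1.5 CPM (SD, n = 3) for non-targeting shRNA, MDM2 shRNA label, DMSO and PROTAC, and the libraries of these groups overlapped. In MDA-MB-436 it stood at 9.06, 8.36 and 9.56 CPM with the non-targeting shRNA and at 6.03, 6.73 and 7.61 CPM with the MDM2 shRNA label, a log2 change of -0.39 ± 0.14 that just missed the threshold (adjusted p = 0.0568, edgeR; 0.0276 with DESeq2). With the PROTAC the change in MDA-MB-436 was -0.18 (95% interval -0.49 to 0.13, adjusted p = 0.378, edgeR).

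The other TAM ligand and the proteins that act on the receptors' ectodomains were measured beside them. PROS1, which encodes protein S, was at 17.99 and 17.2 CPM (group means) in the shRNA pair of MDA-MB-231 and gave no call with either treatment there, with log2 changes of -0.07 and -0.02. In MDA-MB-436 PROS1 was at 52.5 and 51.6 CPM in the shRNA pair and at 77.1 and 48.9 CPM with DMSO and PROTAC, a log2 change of -0.66 ± 0.17 (adjusted p = 0.0118, edgeR), so the DMSO libraries stood above the other 3 groups. The non-targeting libraries were split, at 71.1, 42.75 and 43.63 CPM, with replicate 1 near the DMSO libraries (75.54 to 78.15 CPM). ADAM10 and ADAM17 are the proteases that shed AXL, MERTK and MET from the cell surface. ADAM10 fell in all 4 comparisons, by 0.40 ± 0.07 and 0.37 ± 0.07 on the log2 scale in MDA-MB-231 and by 0.64 ± 0.11 and 0.84 ± 0.11 in MDA-MB-436 (largest adjusted p = 0.00287, edgeR). ADAM17 rose in MDA-MB-436, from 111.7 to 146.8 and from 126.5 to 159.2 CPM (log2 change 0.41 ± 0.08 and 0.33 ± 0.08, adjusted p = 0.00212 and 0.00769, edgeR), and fell in MDA-MB-231 with the shRNA label (-0.29 ± 0.08, adjusted p = 0.0189, edgeR).

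MET rose slightly in MDA-MB-231 and gave no call in MDA-MB-436 with all libraries. The gene (ENSG00000105976) lies on the plus strand at chr7:116672390-116798386. In MDA-MB-231 it stood at 188.8, 181.3 and 178.2 CPM with the non-targeting shRNA and at 199.3, 209.4 and 218.9 CPM with the MDM2 shRNA label. It stood at 177.0, 183.6 and 174.5 CPM with DMSO and at 211.4, 219.2 and 199.4 CPM with the PROTAC. Every treated library was above every control, by a small margin. The log2 change of MET was 0.20 ± 0.05 (fold 1.15, adjusted p = 0.0148, edgeR) with the shRNA label and 0.23 ± 0.05 (fold 1.18, adjusted p = 0.00544, edgeR) with the PROTAC, and the shRNA call was lost without non-targeting replicate 2 or 3 or shRNA replicate 3 (adjusted p = 0.0673, 0.0799 and 0.0606, edgeR) and with all 24 libraries in 1 model (0.0917).

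In MDA-MB-436 MET stood at 119.4, 100.8 and 112.2 CPM with the non-targeting shRNA and at 96.7, 101.7 and 103.8 CPM with the MDM2 shRNA label. It stood at 125.2, 117.2 and 133.2 CPM with DMSO and at 96.3, 113.6 and 118.2 CPM with the PROTAC. Treated and control libraries overlapped in both comparisons, with log2 changes of -0.12 (95% interval -0.34 to 0.09) and -0.20 (-0.41 to 0.02). Without PROTAC replicate 3, the shallowest library, MET was called lower (-0.30, adjusted p = 0.0302, edgeR). The response of MET differed between the lines by -0.43 ± 0.10 (log2, adjusted p = 0.00483, edgeR) for the PROTAC and by -0.33 ± 0.10 (adjusted p = 0.0286, edgeR) for the shRNA label, where the call was lost under 10 alternatives, among them RLE factors (0.0586), library totals (0.165) and no filter (0.18). HGF, the only known ligand of MET, had no count in 19 of 24 libraries, where 3 counts would have been 0.017 to 0.061 CPM, and its highest group mean was 0.28 CPM, in MDA-MB-436 with the PROTAC.

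PLAU, the urokinase-type plasminogen activator, which among other proteases can cleave pro-HGF, fell in MDA-MB-231 from 612.7 to 283.9 CPM with the shRNA label (log2 change -1.11 ± 0.04, adjusted p = 5.03e-08, edgeR) and from 615.3 to 280.8 CPM with the PROTAC (-1.13 ± 0.04, adjusted p = 4.36e-08, edgeR). In MDA-MB-436 PLAU fell by 0.67 ± 0.07 and 0.70 ± 0.07 on the log2 scale (adjusted p = 2.78e-05 and 1.84e-05, edgeR). Among 11651 protein-coding genes with at least 1 CPM on average in each line, PLAU was also the gene whose level was most like that of AXL over the 24 libraries (Pearson's r = 0.99 of log2(CPM + 0.5), each line centred on its mean), followed by PLXNA1, a semaphorin receptor (0.987), and MTHFD1L, a mitochondrial folate enzyme (0.986). The genes most like MET were UBR1, a ubiquitin ligase of the N-degron pathway (0.934), DSG2, a desmosomal cadherin (0.921), and ZNF217, a zinc finger protein (0.915). These values describe 24 libraries that fall into treated and control sets, so any gene that moved in the same comparisons scores high.

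EPHA2, second to AXL per exon length in MDA-MB-231 and first in MDA-MB-436, fell in MDA-MB-231. The gene (ENSG00000142627) lies on the minus strand at chr1:16124337-16156087. In MDA-MB-231 it stood at 733.2, 725.7 and 704.5 CPM with the non-targeting shRNA and at 539.0, 560.5 and 548.4 CPM with the MDM2 shRNA label. It stood at 721.9, 680.0 and 695.1 CPM with DMSO and at 539.8, 536.8 and 571.2 CPM with the PROTAC. All treated libraries were below all controls. The log2 change was -0.39 ± 0.04 (fold 0.762, adjusted p = 2.08e-05, edgeR) with the shRNA label and -0.35 ± 0.04 (fold 0.785, adjusted p = 4.6e-05, edgeR) with the PROTAC.

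In MDA-MB-436 EPHA2 stood at 254.0, 255.8 and 275.4 CPM with the non-targeting shRNA and at 235.2, 218.9 and 232.8 CPM with the MDM2 shRNA label. It stood at 245.7, 236.2 and 250.1 CPM with DMSO and at 228.0, 254.0 and 173.1 CPM with the PROTAC. The libraries labelled MDM2 shRNA were below their controls, while the PROTAC libraries spread on both sides of the DMSO range. The log2 changes were -0.18 (95% interval -0.38 to 0.03) and -0.17 (-0.37 to 0.03) and did not pass the test (adjusted p = 0.188 and 0.192, edgeR). The PROTAC change was called without PROTAC replicate 2 (-0.28, adjusted p = 0.0342, edgeR). The line difference did not pass either (0.20 ± 0.12 and 0.19 ± 0.12, adjusted p = 0.299 and 0.312, edgeR), but it did for the shRNA label with library totals (0.30, adjusted p = 0.0294, edgeR) and for the PROTAC without MDA-MB-436 PROTAC replicate 3 (0.33, adjusted p = 0.00169, edgeR). EFNA1, which encodes an A-type ephrin ligand of EPHA2, rose in all 4 comparisons. It went from 2.49 to 5.77 and from 2.96 to 5.15 CPM in MDA-MB-231 (log2 change 1.21 ± 0.21 and 0.79 ± 0.21, adjusted p = 0.00181 and 0.0193, edgeR). In MDA-MB-436 EFNA1 went from 16.9 to 31.1 and from 14.6 to 32.4 CPM (0.89 ± 0.14 and 1.14 ± 0.14, adjusted p = 0.000574 and 9.57e-05, edgeR).

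PDGFRB, a receptor typical of pericytes and fibroblasts, was low in both lines and rose in all 4 comparisons. The gene (ENSG00000113721) lies on the minus strand at chr5:150113837-150155872. In MDA-MB-231 it stood at 4.44, 4.19 and 4.55 CPM with the non-targeting shRNA and at 6.85, 8.09 and 8.48 CPM with the MDM2 shRNA label. It stood at 4.40, 4.04 and 5.08 CPM with DMSO and at 7.36, 9.29 and 6.95 CPM with the PROTAC. In MDA-MB-436 it stood at 0.55, 0.91 and 0.82 CPM with the non-targeting shRNA and at 2.97, 3.58 and 2.64 CPM with the MDM2 shRNA label. It stood at 1.502, 0.62 and 0.90 CPM with DMSO and at 2.21, 2.54 and 3.77 CPM with the PROTAC. No treated library reached down to its control range; the controls of MDA-MB-436 rested on 34 to 130 counts.

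The log2 changes of PDGFRB in MDA-MB-231 were 0.83 ± 0.14 (adjusted p = 0.00144, edgeR) with the shRNA label and 0.80 ± 0.14 (adjusted p = 0.00174, edgeR) with the PROTAC. In MDA-MB-436 they were 2.02 ± 0.35 (adjusted p = 0.000951, edgeR) and 1.495 ± 0.34 (adjusted p = 0.00583, edgeR), in the same order. The rise was larger in MDA-MB-436 by 1.17 ± 0.36 (adjusted p = 0.0256, edgeR) for the shRNA label. For the PROTAC the line difference, 0.69 ± 0.36, did not pass the test (adjusted p = 0.198, edgeR); it ran from 0.43 to 1.08 with each library left out and was called without MDA-MB-436 DMSO replicate 1 (1.08, adjusted p = 0.0283, edgeR). The call for the shRNA label was lost without MDA-MB-231 shRNA replicate 1, MDA-MB-436 non-targeting replicate 1 or MDA-MB-436 shRNA replicate 2 (adjusted p = 0.0659, 0.075 and 0.071, edgeR). The summed level of 10 other fibroblast and pericyte markers was 100.2 to 132.6 CPM in the MDA-MB-231 controls and 153.8 to 175.8 CPM in its treated libraries, with 2 of 6 tested markers higher and 1 lower in each comparison. COL1A1, a fibrillar collagen, rose from 15.7 to 30.9 and from 16.9 to 29.6 CPM. In MDA-MB-436 the sums were 83.2 to 91.5 CPM in controls and 82.4 to 106.3 CPM in treated libraries. DCN, a defining fibroblast transcript, had no count in any group.

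The promoters of AXL, GAS6 and EPHA2, the 3 most abundant of the 4 genes that fell together in MDA-MB-231, are shown beside that of PDGFRB, which rose in all 4 comparisons. Each is the 220 bases from 250 to 31 before the first RefSeq start site of the gene (GRCh38.p14), 5′ to 3′, and capitals mark matches on either strand to the GC box GGGCGG, to the AP-1 motif TGANTCA or to the TEAD motif GGAATG; no matches overlap in these windows.
AXL promoter, chr19:41218973-41219192, plus strand: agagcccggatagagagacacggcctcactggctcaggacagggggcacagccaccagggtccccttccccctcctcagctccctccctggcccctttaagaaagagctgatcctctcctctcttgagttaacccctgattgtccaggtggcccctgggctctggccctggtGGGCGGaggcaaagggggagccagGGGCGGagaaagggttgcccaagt
GAS6 promoter, chr13:113864107-113864326, minus strand: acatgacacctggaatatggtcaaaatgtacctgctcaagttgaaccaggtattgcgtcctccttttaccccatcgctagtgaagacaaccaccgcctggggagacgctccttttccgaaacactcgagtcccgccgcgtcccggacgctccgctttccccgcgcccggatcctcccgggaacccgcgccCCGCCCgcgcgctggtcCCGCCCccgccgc
EPHA2 promoter, chr1:16156100-16156319, minus strand: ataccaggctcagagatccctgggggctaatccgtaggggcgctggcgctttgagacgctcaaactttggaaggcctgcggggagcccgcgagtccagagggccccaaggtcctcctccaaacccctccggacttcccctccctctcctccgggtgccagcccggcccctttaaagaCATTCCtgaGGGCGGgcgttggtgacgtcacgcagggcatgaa
PDGFRB promoter, chr5:150155876-150156095, minus strand: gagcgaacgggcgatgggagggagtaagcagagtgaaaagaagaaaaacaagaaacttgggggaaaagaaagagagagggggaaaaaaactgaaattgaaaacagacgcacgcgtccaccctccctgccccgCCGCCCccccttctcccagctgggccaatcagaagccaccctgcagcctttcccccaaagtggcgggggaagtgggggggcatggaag
The GC box was found in all 4 windows and in 38.9% of the 35116 windows of this length in the RefSeq table. GGAATG was found once, in EPHA2, and in 10.7% of all windows. TGANTCA was in none of the 4 and in 6% of all windows. AXL also has a later RefSeq start, whose window, not printed here, held 1 match to GGAATG and 0 to the GC box. A match says only that the letters are present; binding was not measured.

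FGFR1 (ENSG00000077782, minus strand, chr8:38400215-38468834) gave a call in 1 of the 4 comparisons. In MDA-MB-436 it stood at 66.3, 55.0 and 64.6 CPM with DMSO and at 77.0, 77.9 and 70.5 CPM with the PROTAC, a log2 change of 0.27 ± 0.09 (fold 1.21, adjusted p = 0.0296, edgeR). With the MDM2 shRNA label it rested at 69.7, 67.6 and 76.7 CPM against 65.7, 59.2 and 62.4 CPM, above all controls but short of the threshold (0.21 ± 0.09, adjusted p = 0.088, edgeR). The PROTAC call was lost without DMSO replicate 2, PROTAC replicate 1 or PROTAC replicate 2 (adjusted p = 0.0896, 0.0719 and 0.0769, edgeR). In MDA-MB-231 the libraries overlapped at 82.2 to 102.7 CPM, with log2 changes of -0.07 (95% interval -0.27 to 0.12) and 0.05 (-0.15 to 0.24). LETM2, a gene on the opposite strand that shares 138 exonic bases with FGFR1, held 13.3% of the number of FGFR1 counts, and whether counting used strand is not given in the sources used here.

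The collagen receptors split by line. DDR1 (ENSG00000204580, plus strand, chr6:30876421-30900156) was at 24.5 to 32.7 CPM in all 8 group means, the libraries of every neighbouring pair of groups in that order overlapped, and its log2 changes, 0.23, 0.39, -0.18 and -0.13, did not pass the test (smallest adjusted p = 0.184, edgeR). DDR2 (ENSG00000162733, plus strand, chr1:162631373-162787400) was near silent in MDA-MB-231 and fell there. It stood at 2.29, 1.88 and 2.15 CPM with the non-targeting shRNA and at 0.61, 0.41 and 0.31 CPM with the MDM2 shRNA label. It stood at 1.40, 2.02 and 2.35 CPM with DMSO and at 0.26, 0.42 and 0.97 CPM with the PROTAC. Treated libraries were below all controls but rested on 18 to 58 counts each. The log2 change was -2.25 ± 0.43 (adjusted p = 0.00339, edgeR) and -1.81 ± 0.43 (adjusted p = 0.0105, edgeR).

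In MDA-MB-436 DDR2 ranked 5 of the 10 genes per exon length in both control groups and 7 in both treated groups. It stood at 54.1, 48.0 and 49.8 CPM with the non-targeting shRNA and at 48.3, 53.4 and 48.4 CPM with the MDM2 shRNA label. It stood at 60.5, 55.1 and 61.2 CPM with DMSO and at 43.4, 54.7 and 59.3 CPM with the PROTAC. Treated libraries overlapped with their own controls in both comparisons, and the DMSO libraries lay above both shRNA groups. The log2 changes were 0.00 (95% interval -0.26 to 0.26) and -0.17 (-0.43 to 0.09), and without PROTAC replicate 3 the latter was called lower (-0.31, adjusted p = 0.0452, edgeR). The response differed between the lines by 2.23 ± 0.39 (adjusted p = 0.000323, edgeR) for the shRNA label and 1.64 ± 0.39 (adjusted p = 0.00385, edgeR) for the PROTAC.

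**Figure D3:**
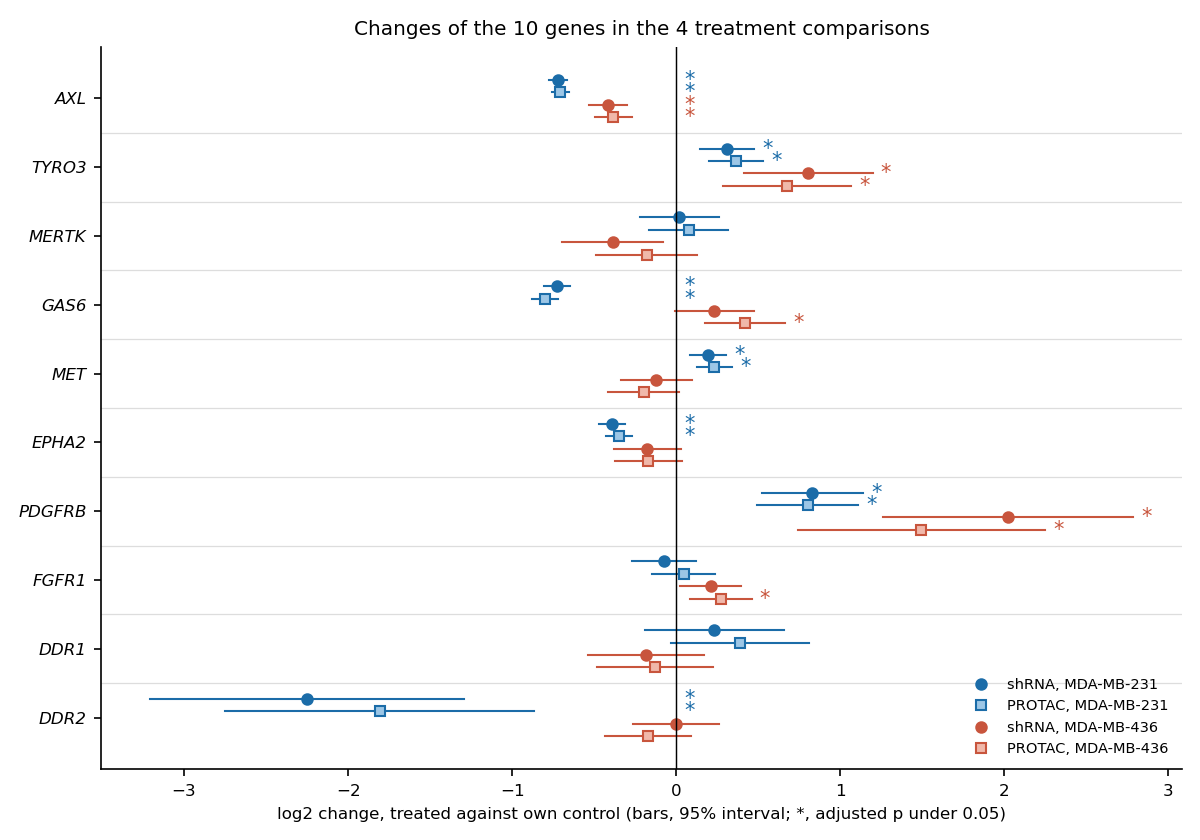
Log2 change of each of the 10 genes (rows) against its own control in the 4 treatment comparisons; points are estimates, horizontal bars 95% intervals, circles the shRNA label, squares the PROTAC, blue MDA-MB-231, red MDA-MB-436, and an asterisk marks an adjusted p below 0.05. AXL lies left of 0 in all 4 comparisons (-0.72 to -0.38), PDGFRB and TYRO3 lie right of 0, GAS6 lies left of 0 only in MDA-MB-231, and DDR2 carries an asterisk only there.

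The shRNA label and the PROTAC gave changes of the 10 genes that were not told apart in either line. The difference of the PROTAC effect from the shRNA effect passed the test for 0 of 10 genes in MDA-MB-231 (0.00484% of all genes) and 0 of 10 in MDA-MB-436 (0.00441%); DESeq2 and limma voom also gave 0, and no unadjusted p of edgeR was below 0.05. For AXL the difference was 0.01 (95% interval -0.06 to 0.09) in MDA-MB-231 and 0.03 (-0.13 to 0.19) in MDA-MB-436, and for MET 0.04 (-0.11 to 0.19) and -0.08 (-0.38 to 0.23). For the low PDGFRB in MDA-MB-436 the interval was wide, -1.58 to 0.52.

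For all of the 10 genes except TYRO3 and DDR1, the estimated difference between the lines was larger than the estimated change in any treatment. These sizes were not compared by a test. For PDGFRB they were close. Its log2 difference between the lines was -2.34 (95% interval -2.74 to -1.95), and its change with the shRNA label in MDA-MB-436 was 2.02 (1.26 to 2.78). Among control libraries 9 of the 10 genes differed between MDA-MB-436 and MDA-MB-231, 2 higher and 7 lower in MDA-MB-436, against 66.8% of the 24719 genes tested (35.9% higher, 30.9% lower). AXL and GAS6 were lower in MDA-MB-436 by nearly the same factor, with log2 differences of -2.88 ± 0.03 and -2.90 ± 0.07 (fold 0.136 and 0.134), and EPHA2 (-1.49 ± 0.06), MERTK (-1.77 ± 0.09), PDGFRB (-2.34 ± 0.19), MET (-0.62 ± 0.05) and FGFR1 (-0.61 ± 0.06) were lower too. TYRO3 was higher in MDA-MB-436 (0.58 ± 0.10) and DDR2 27 times higher (4.76 ± 0.21); DDR1 did not pass (0.23 ± 0.13, adjusted p = 0.121, edgeR). Per kilobase of exon, the non-targeting libraries of MDA-MB-231 ranked AXL (402 ± 6 CPM per kb), EPHA2 (173 ± 4), GAS6 (76.8 ± 2.0) and MET (26.0 ± 0.8) ahead of the rest, all below 7.2. In MDA-MB-436 the order was EPHA2 (62.9 ± 2.9), AXL (56.2 ± 1.8), MET (15.8 ± 1.3), GAS6 (11.4 ± 0.7) and DDR2 (4.72 ± 0.29).

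The order of the 8 groups followed the lines for most genes. For GAS6 it ran from the MDA-MB-231 controls over the shRNA label and the PROTAC in that line to MDA-MB-436, where the PROTAC libraries overlapped with all 3 other groups, the shRNA label lay above non-targeting and DMSO was lowest. For MET and EPHA2 all MDA-MB-231 groups stood above all MDA-MB-436 groups, and controls and treatments of MDA-MB-231 formed separate pairs, treatments on top for MET and controls on top for EPHA2. PDGFRB ran from the MDA-MB-231 treatments over its controls and the MDA-MB-436 treatments to the MDA-MB-436 controls, with overlap only inside each of these 4 pairs. TYRO3 was highest in the treated MDA-MB-436 libraries, and its MDA-MB-436 non-targeting libraries overlapped with the treated MDA-MB-231 libraries. For DDR2 the MDA-MB-436 PROTAC libraries overlapped with the 3 other groups of that line, and all 4 lay above the MDA-MB-231 controls, which lay above the MDA-MB-231 treatments; MERTK and FGFR1 separated by line, and their MDA-MB-231 groups overlapped.

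Responses to the shRNA label differed between the lines for 5 of 10 genes, 4 with a positive and 1 with a negative difference, against 19.7% of all genes (9.94% and 9.77%). Responses to the PROTAC differed for 4 of 10, 3 positive and 1 negative, against 22.3% (11.8% and 10.5%).

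The genes that surround these receptors in the pathway are given from lists of 20 ligands, 14 genes of ligand activation and receptor shedding, 23 adaptors, 21 genes that restrain receptor kinases and 49 other receptor tyrosine kinases. Their counts stand beside the shares over all genes, in MDA-MB-231 11.1% higher and 11.6% lower with the shRNA label and 11.1% and 11.5% with the PROTAC. The same shares were 16% and 14.4%, and 17.3% and 15.1%, for MDA-MB-436. No list was tested against these shares, and no difference of a list between the lines was tested. Of the ligands tested in MDA-MB-231, 3 of 17 rose and 3 fell with the shRNA label and 3 rose and 2 fell with the PROTAC; in MDA-MB-436 1 of 19 rose and 5 fell, and 1 rose and 7 fell (all genes called, 22.7% and 22.6%, and 30.4% and 32.4%). PDGFD, a ligand of PDGFRB, fell in MDA-MB-231 from 6.42 to 3.06 and from 6.89 to 2.50 CPM (log2 change -1.07 ± 0.15 and -1.46 ± 0.15, adjusted p = 0.000337 and 3.91e-05, edgeR). PDGFC fell there by 0.29 and 0.36 on the log2 scale from 128.0 and 130.2 CPM, and FGF1, a ligand of FGFR1, rose by 0.62 and 0.74. In MDA-MB-436 FGF5 fell from 8.99 to 4.67 and from 10.8 to 4.43 CPM, PDGFA by 0.57 and 0.55, and EFNA5 by 0.58 and 0.51 on the log2 scale. The median log2 change of the ligands was 0.31 and 0.09 in MDA-MB-231 and -0.31 and -0.23 in MDA-MB-436, beside the medians of all genes given above. With scaling to library totals the MDA-MB-231 shRNA count was 3 higher and 1 lower, and the MDA-MB-436 counts 3 and 4, and 2 and 7.

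Of the genes of activation and shedding in MDA-MB-231, 6 of 12 fell and 1 rose with the shRNA label and 5 fell and 1 rose with the PROTAC, against 11.6% and 11.5% of all genes that fell, with medians of -0.18 and -0.12. Beside PLAU, MMP14, a membrane metalloprotease, fell from 586.6 to 337.2 and from 593.8 to 335.5 CPM (log2 change -0.80 ± 0.04 and -0.83 ± 0.04, adjusted p = 1.94e-07 and 1.83e-07, edgeR). SPINT2, an inhibitor of the proteases that activate HGF, fell by 0.38 and 0.42 and FURIN, the convertase that cleaves the MET precursor, by 0.35 and 0.40 on the log2 scale. In MDA-MB-436 3 of 12 rose and 2 fell with the shRNA label and 2 rose and 2 fell with the PROTAC (all genes called, 30.4% and 32.4%), and MMP14 was near 2.6 CPM in controls there. PSENEN, a gamma-secretase subunit, rose by 0.40 and 0.74 in MDA-MB-436.

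Of the genes that restrain receptor kinases in MDA-MB-231, 8 of 21 fell and 1 rose under each treatment, against 11.6% and 11.5% of all genes that fell. In MDA-MB-436 7 fell and 1 rose with the shRNA label and 11 fell and 0 rose with the PROTAC, against 14.4% and 15.1%. The medians were -0.22, -0.07, -0.16 and -0.31. PTPRJ, a receptor phosphatase that acts on MET, fell from 184.8 to 112.6 and from 188.7 to 112.6 CPM in MDA-MB-231 and from 96.2 to 52.7 and from 103.2 to 50.2 CPM in MDA-MB-436 (log2 changes -0.71, -0.75, -0.85 and -1.04, largest adjusted p = 1.94e-05, edgeR). PTPRF, another receptor phosphatase, fell by 0.58, 0.64, 1.01 and 1.19, and SH3KBP1, which links CBL to receptor endocytosis, by 0.76, 0.58, 0.51 and 0.80 on the log2 scale. SPRY4, a feedback inhibitor of RAS-MAPK signalling, fell in MDA-MB-231 from 173.3 to 94.4 and from 169.8 to 98.3 CPM (-0.88 ± 0.05 and -0.79 ± 0.05, adjusted p = 3.48e-07 and 6.95e-07, edgeR), while in MDA-MB-436 it rose with the shRNA label (0.38 ± 0.12, adjusted p = 0.0307, edgeR) and stood at 67.3 and 73.7 CPM with DMSO and PROTAC. LRIG1, which promotes receptor degradation, fell in MDA-MB-436 by 0.58 and 0.78 and PTPN1, a cytosolic phosphatase, by 0.29 and 0.34. With scaling to library totals the higher and lower counts were 4 and 8, 2 and 7, 4 and 5, and 2 and 7.

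Of the adaptors, 5 of 22 rose and 2 fell with the shRNA label and 7 rose and 2 fell with the PROTAC in MDA-MB-231, with medians of 0.10 and 0.10 (all genes called, 22.7% and 22.6%). For MDA-MB-436, 4 of 23 rose and 7 fell, and 3 rose and 7 fell, with medians of -0.31 and -0.29 (all genes called, 30.4% and 32.4%). Scaling to library totals made the shRNA counts 5 and 5. SHC1, the adaptor that links receptors to GRB2, rose in MDA-MB-231 from 138.7 to 192.3 and from 141.4 to 192.5 CPM (log2 change 0.47 ± 0.10 and 0.44 ± 0.10, adjusted p = 0.00718 and 0.00994, edgeR). In MDA-MB-436 SHC1 fell from 304.5 to 171.3 and from 280.0 to 151.6 CPM (-0.81 ± 0.07 and -0.89 ± 0.07, adjusted p = 9.68e-06 and 4.86e-06, edgeR). GAB2, a docking protein for MET and other receptors, went the other way, falling by 0.82 and 0.72 in MDA-MB-231 and rising by 1.39 and 1.42 in MDA-MB-436. SHC3 fell in all 4 comparisons (-0.47, -0.42, -1.14 and -1.30). PIK3R3, a PI3K regulatory subunit, rose in MDA-MB-231 (0.56 and 0.80), as did SOS2, a RAS exchange factor (0.30 and 0.38). SHC2 (2.17 and 2.28) and FRS3, an FGF receptor adaptor (0.99 and 1.21), rose in MDA-MB-436, SHC2 from 5.67 to 25.2 and from 4.95 to 24.1 CPM.

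Of the other receptor tyrosine kinases, 10 of 33 rose and 7 fell with the shRNA label and 8 rose and 7 fell with the PROTAC in MDA-MB-231, against 22.7% and 22.6% of all genes called. For MDA-MB-436, 3 of 42 rose and 9 fell, and 4 rose and 12 fell, counts that became 5 and 5, and 5 and 7, with scaling to library totals. All genes called there were 30.4% and 32.4%, and the list's shares are near these. STYK1, a receptor-like kinase, rose in all 4 comparisons, from 4.27 to 10.0 and from 4.35 to 10.5 CPM in MDA-MB-231 and from 4.67 to 23.8 and from 3.97 to 25.2 CPM in MDA-MB-436 (log2 changes 1.23, 1.27, 2.37 and 2.66, largest adjusted p = 0.000189, edgeR). EPHB2, an ephrin-B receptor, fell in MDA-MB-231 from 98.7 to 34.6 and from 97.8 to 30.97 CPM (-1.52 ± 0.08 and -1.66 ± 0.08, adjusted p = 3.53e-07 and 2.19e-07, edgeR), and its relative EPHB3 rose there from 2.37 to 6.77 and from 2.94 to 5.90 CPM. FGFR3 rose in MDA-MB-231 by 1.63 and 1.58 to about 6 CPM. ROR1, a receptor for WNT5A, fell in all 4 comparisons (-0.51, -0.57, -0.92 and -0.85). EPHA4 rose in MDA-MB-231 (0.33 and 0.29) and fell in MDA-MB-436 (-0.64 and -0.94), and RET rose in MDA-MB-436 from 3.49 to 5.57 and from 2.69 to 5.15 CPM.

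**Figure D4:**
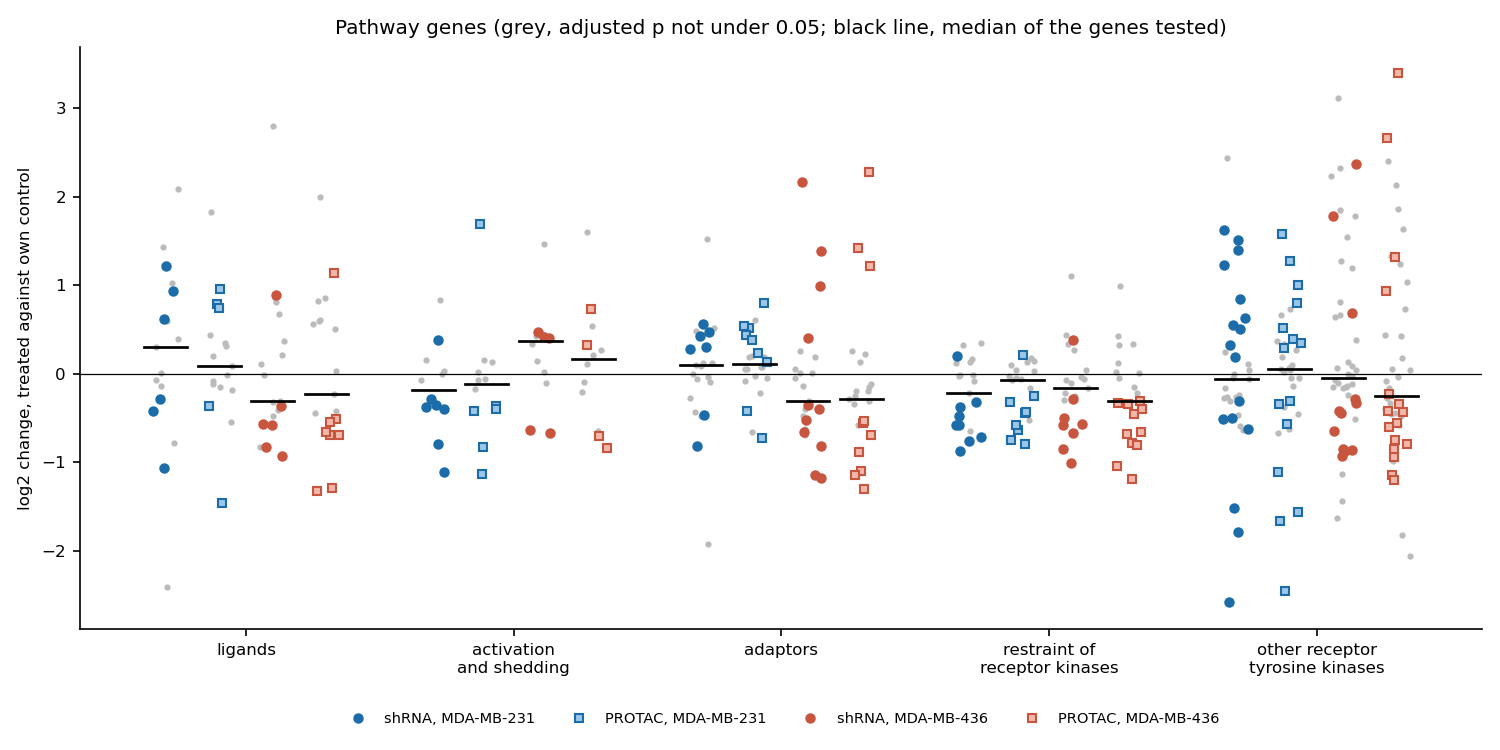
Log2 change of every tested gene of the 5 lists (horizontal axis) in the 4 treatment comparisons; coloured marks have an adjusted p below 0.05, grey points do not, and black lines are list medians. Most coloured marks of the restraint list lie below 0 in each comparison, with medians of -0.22, -0.07, -0.16 and -0.31.

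Measures of the genes and libraries that moved with the treatments were set beside these results. In MDA-MB-231 protein-coding genes that span over 200 kb fell, with a median log2 change of -0.44 and -0.42 (46.8% and 44% called lower), while genes of 20 to 50 kb, the class of AXL, TYRO3, GAS6, EPHA2, PDGFRB and DDR1, had medians of 0.04 and 0.05. Genes of 100 to 200 kb, the class of MERTK, MET and DDR2, had medians of -0.08 and -0.04, and FGFR1 lies in the class between. The part of gene span in the changes of the 10 genes was not tested. In MDA-MB-436 mitochondrial transcripts held 6.78 to 7.26% of counts in control libraries and 5.47 to 5.5% in treated ones, against 5.4 to 5.92% in all groups of MDA-MB-231; their part in the MDA-MB-436 results was not tested.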

How the data were processed

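Total RNA was made into libraries with a NEBNext Ultra II kit and sequenced on an Illumina HiSeq, per the labels' protocols; strand is not given in the sources used here. The authors deposited whole-number counts per Ensembl gene for each of the 24 libraries, made with cutadapt 2.4, HISAT2 and StringTie on GRCh38, per the submitters' processing notes. Low counts pile up at 4 (1.48 times the mean of the values 3 and 5), so each count may not be 1 read. Symbols, spans and exon lengths came from GENCODE 29, which held 57055 of the 60675 identifiers and 99.93% of counts. The members and lists were chosen with earlier results of these data known.

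The counts were tested with edgeR 4.0.16 (R 4.3.3; TMM factors, filterByExpr, quasi-likelihood test, Benjamini-Hochberg adjustment over all genes, threshold 0.05) in 1 model per line over 12 libraries (8 residual degrees of freedom); line differences came from 1 model over 24 libraries (16 degrees). Levels are CPM over TMM-scaled totals of all 24 libraries. The fits were tested on simulated counts. Named beside the 10 genes were MDM2, PROS1, HGF, the up to 4 genes of each list and line with the smallest adjusted p, and the 3 genes most like AXL and MET; VIM, COL1A1, DCN, CD3E, CDH1 and keratins are named from marker lists. Alternatives were RLE factors, library totals, other filters, DESeq2 1.42.0, limma voom 3.58.1, counts divided by 4, other sets of libraries, a replicate block and each library left out. The 220-base promoter windows came from RefSeq (GRCh38.p14).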

Additional observations from a re-analysis of the deposited data

Results flagged for a closer look

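The responses of 5 genes differed between the lines by a test of the difference itself (log2, MDA-MB-436 minus MDA-MB-231; edgeR over all 24 libraries). With the MDM2 shRNA label the differences were 0.29 for AXL, 0.94 for GAS6, -0.33 for MET, 1.17 for PDGFRB and 2.23 for DDR2. With the PROTAC they were 0.33 for AXL, 1.23 for GAS6, -0.43 for MET and 1.64 for DDR2. For AXL both lines fell and MDA-MB-231 fell more; for GAS6 and DDR2 a fall was called in MDA-MB-231 only. For MET a small rise was called in MDA-MB-231 only and the difference with the shRNA label lost its call under 10 alternatives. For PDGFRB both lines rose. DDR2 in MDA-MB-231 stood at 2.11 CPM or less in group means, so its difference rests on low counts.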

How the results depend on the processing

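Of 640 values of the 10 genes in the 4 treatment comparisons under the alternatives, 610 kept their side of the threshold, 15 lost a call, 15 gained one and 0 changed the sign of a call. The 610 include values without a call that changed sign. For DDR1 with the PROTAC in MDA-MB-436 the log2 change ran from -0.239 to 0.051 with each library left out. The number of genes called with the shRNA label in MDA-MB-436, 3, became 5 with library totals alone (GAS6 and FGFR1 gained) and 6 with the 6 libraries alone (GAS6, EPHA2 and MERTK gained); with the PROTAC there, 5 became 3 with the 6 libraries alone (GAS6 and FGFR1 lost). With each library left out in turn, the numbers called in MDA-MB-231 were 5 to 7 with the shRNA label and 7 to 7 with the PROTAC, in MDA-MB-436 3 to 4 and 3 to 7, and for the line differences 3 to 5 and 4 to 5; the 7 in MDA-MB-436 came without PROTAC replicate 3 (MET and DDR2 gained), and the lowest without MDA-MB-436 PROTAC replicate 1 (3) and without MDA-MB-436 non-targeting replicate 1 (3). The line difference of MET with the shRNA label lost its call under 10 alternatives, among them RLE factors (adjusted p = 0.0586) and library totals (0.165); the cause was not tested. MERTK with the shRNA label in MDA-MB-436 gained a call under 8 alternatives.

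No pairing of samples by library numbers 1 to 3 was seen: deviations of libraries with the same number correlated at -0.049 to 0.056, and not every library correlated best with its own number. With 3 libraries per group and noise from low counts, this does not show that the samples were unpaired. With the replicate number as a block the genes called were 7, 7, 4 and 5 in the 4 treatment comparisons, 5 and 4 for the line differences and 9 for the control libraries, the block adding MERTK (adjusted p = 0.0454, edgeR); over all genes the calls with the shRNA label in MDA-MB-436 went from 6896 to 6530. RNA levels say nothing of receptor protein or phosphorylation. Isoforms were not separated, and PDGFRB in MDA-MB-436 and DDR2 in MDA-MB-231 rest on few counts.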
